A study of Mus musculus with 6 samples.

Results

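Thyroid hormone acts in muscle through a small set of genes, and 8 of them are described here in single cells of mouse tibialis anterior muscle (TAM). They are the receptors *Thra* and *Thrb*, the deiodinases *Dio2* and *Dio3*, the receptor partners *Rxra* and *Rxrb*, the corepressor *Ncor1* and the coactivator *Ncoa1*. All 8 were found by gene symbol among the 12436 genes of the deposited matrices. Cells came from TAM of male mice aged 3 to 5 months of a mixed B6;129 line with the Fucci2aR cell cycle reporter in the Rosa26 locus. By the study's methods these mice were negative for Cre, so the reporter was not switched on. Control mice ate a matched diet, and hypothyroid mice ate an iodine-deficient diet with 0.15% propylthiouracil, a drug that blocks hormone synthesis, from 3 weeks before injury onward. Muscle was taken uninjured (day 0) or 5 or 14 days after cardiotoxin (dpi), a toxin that destroys myofibers and lets the muscle regenerate. Each of the 6 combinations of diet and day was 1 library from 3 pooled mice.

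As background, thyroid hormone reaches cells mainly as the prohormone thyroxine, T4. The enzyme encoded by *Dio2* turns T4 into the active hormone T3, whereas the enzyme encoded by *Dio3* inactivates both hormones, so the balance of the pair sets how much T3 a cell sees. T3 binds receptors encoded by *Thra* and *Thrb*, which sit on DNA with a retinoid X receptor, hold corepressors such as NCOR1 without hormone, and exchange them for coactivators such as NCOA1 when T3 binds. *Thra* is known as the main receptor gene of skeletal muscle, and fibro-adipogenic progenitors (FAPs) are the mesenchymal cells that build matrix around regenerating fibers.

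Both deiodinase genes lie on chromosome 12 and encode selenoproteins, in which a TGA codon is read as selenocysteine at the active site rather than as a stop. The 27 bases around that codon are shown because they carry the chemistry common to both enzymes (mm39, from the reference genome at the codon annotated by GENCODE, 5′ to 3′ on the coding strand, exonic, with the selenocysteine codon in capitals). They lie at chr12:90696585-90696611 on the minus strand for *Dio2* and at chr12:110246161-110246187 on the plus strand for *Dio3*.
Dio2: ggttcagccaccTGAccacctttcact
Dio3: ggcagctgtaccTGAccaccgttcatg
The pair was identical at 17 of 27 positions, the selenocysteine codon included.

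The first block of columns in each file, which alone was taken as the labelled sample, held 11207 cells, with 528 to 3294 cells per library and 2283740 to 23496509 recovered UMIs (unique molecular identifiers). The study reports more cells than these for every sample, so the first blocks hold only a part of its counts. Cells were named from marker genes that included none of the 8, and 9 classes were kept. FAP-like cells were the largest class, with 3889 cells, and 1407 cells stayed unclassed. In every library *Pdgfra* had a UMI in 65.1% to 74.1% of FAP-like cells and the endothelial gene *Pecam1* in 5.61% to 11.5%. Both genes are in the marker lists used for naming, so these shares are no independent check of the label. The leukocyte gene *Ptprc*, which is in none of the lists, had a UMI in 0% to 6.62%. Sarcomere transcripts were present in every class, with *Acta1* at 340.46 to 1383.87 CPM (UMIs of the gene scaled to 1e6 UMIs of a pool of cells) outside myocyte-like cells and 41351.81 CPM within them. The source of those outside was not tested. Of the first-block cells, 1152 of the 1650 in the hypothyroid 14 dpi library also stood, under the same barcodes, in a later block of the control day 0 file, and 528 of the 2428 in the control 5 dpi library in a later block of the hypothyroid day 0 file. Some ratios of the members that rest on these 2 libraries are therefore also given without those cells, and others are given only with them. A further 12 barcodes were shared between first blocks. Each condition had 1 library, so a difference between diets on 1 day, or between days under 1 diet, had no replicate, and the 95% intervals below cover counting error only. With the diets paired by day, a test chosen after seeing the data, the 3 pairs allow an exact two-sided sign-flip p of 0.25 at the lowest. In FAP-like cells *Thrb* was lower under the hypothyroid diet on 3 of 3 days (mean log2 ratio -0.38 ± 0.48, SD, n = 3, exact p = 0.25). The other 7 members were lower on 2 of 3 days, with exact p of 0.5 to 1.0.

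The diet label was checked with 4 listed T3 targets, *Hr* (hairless), *Klf9*, *Thrsp* and *Dbp*, which did not all differ in 1 direction. In FAP-like cells *Hr* stood at 23.2 CPM (control) and 6.91 CPM (hypothyroid) on day 0, 6.67 and 4.58 CPM at 5 dpi, and 16.9 and 8.65 CPM at 14 dpi. It was lower under the hypothyroid diet on each day, with ratios of 0.298 (0.117 to 0.641), 0.687 (0.411 to 1.16) and 0.511 (0.374 to 0.691), of which the one at 5 dpi had an interval that included 1. Without the shared cells the ratio was 0.795 (0.45 to 1.45) at 5 dpi and 0.498 (0.292 to 0.806) at 14 dpi. *Klf9* was at 1300 against 1297 CPM on day 0, and lower in hypothyroid cells at 5 dpi (587 against 255 CPM, ratio 0.435, interval 0.41 to 0.461) and 14 dpi (868 against 702 CPM, ratio 0.808, interval 0.78 to 0.838). *Thrsp* was scarce, with a ratio of 0.814 (0.275 to 2.01) on day 0 and 1 against 18 UMIs at 14 dpi (0.0658, 0.00158 to 0.417). *Dbp*, also a circadian gene, changed sides: it was higher in hypothyroid cells on day 0 (43.5 against 20.2 CPM, ratio 2.15, 1.45 to 3.16), lower at 5 dpi (1.26 against 3.71 CPM, ratio 0.34, 0.141 to 0.792) and at a ratio of 1.29 (0.84 to 1.99) at 14 dpi.

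*Thra*, the major receptor gene of muscle, had 3986 UMIs in 2622 cells and was a gene of structural cells. Pooled over libraries its level was 104 CPM in tenocyte-like, 101 CPM in mural-like, 84.4 CPM in glial-like, 77.5 CPM in myocyte-like, 73.7 CPM in endothelial-like and 63.3 CPM in FAP-like cells. The ranges over libraries of these 6 classes all overlapped, so their order was not resolved. Myogenic progenitor-like cells followed at 43.6 CPM, and their range of 34.0 to 55.5 CPM overlapped that of FAP-like cells, 48.7 to 98.8 CPM.

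Immune cells held little *Thra*. Macrophage-like cells were at 13.2 CPM, with a highest library of 25.5 CPM that stayed below the lowest of the myogenic progenitor-like cells, and lymphoid-like cells were at 4.56 CPM. In lymphoid-like cells, which serve here as the background, *Thra* had a UMI in 1.85% of 1024 control cells at 5 dpi (exact binomial interval 1.12% to 2.88%) and in 0 of 155 hypothyroid cells at 14 dpi. FAP-like cells had one in 32.1% to 43.6% at median depths of 4157 to 13869 UMIs against 2326 to 3390 in lymphoid-like cells, and in 5.01% to 12.6% when each cell was thinned to 1000 UMIs, where no lymphoid pool was above 1.67%. The plot of levels by class shows this step between structural and immune cells.

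**Figure D1:**
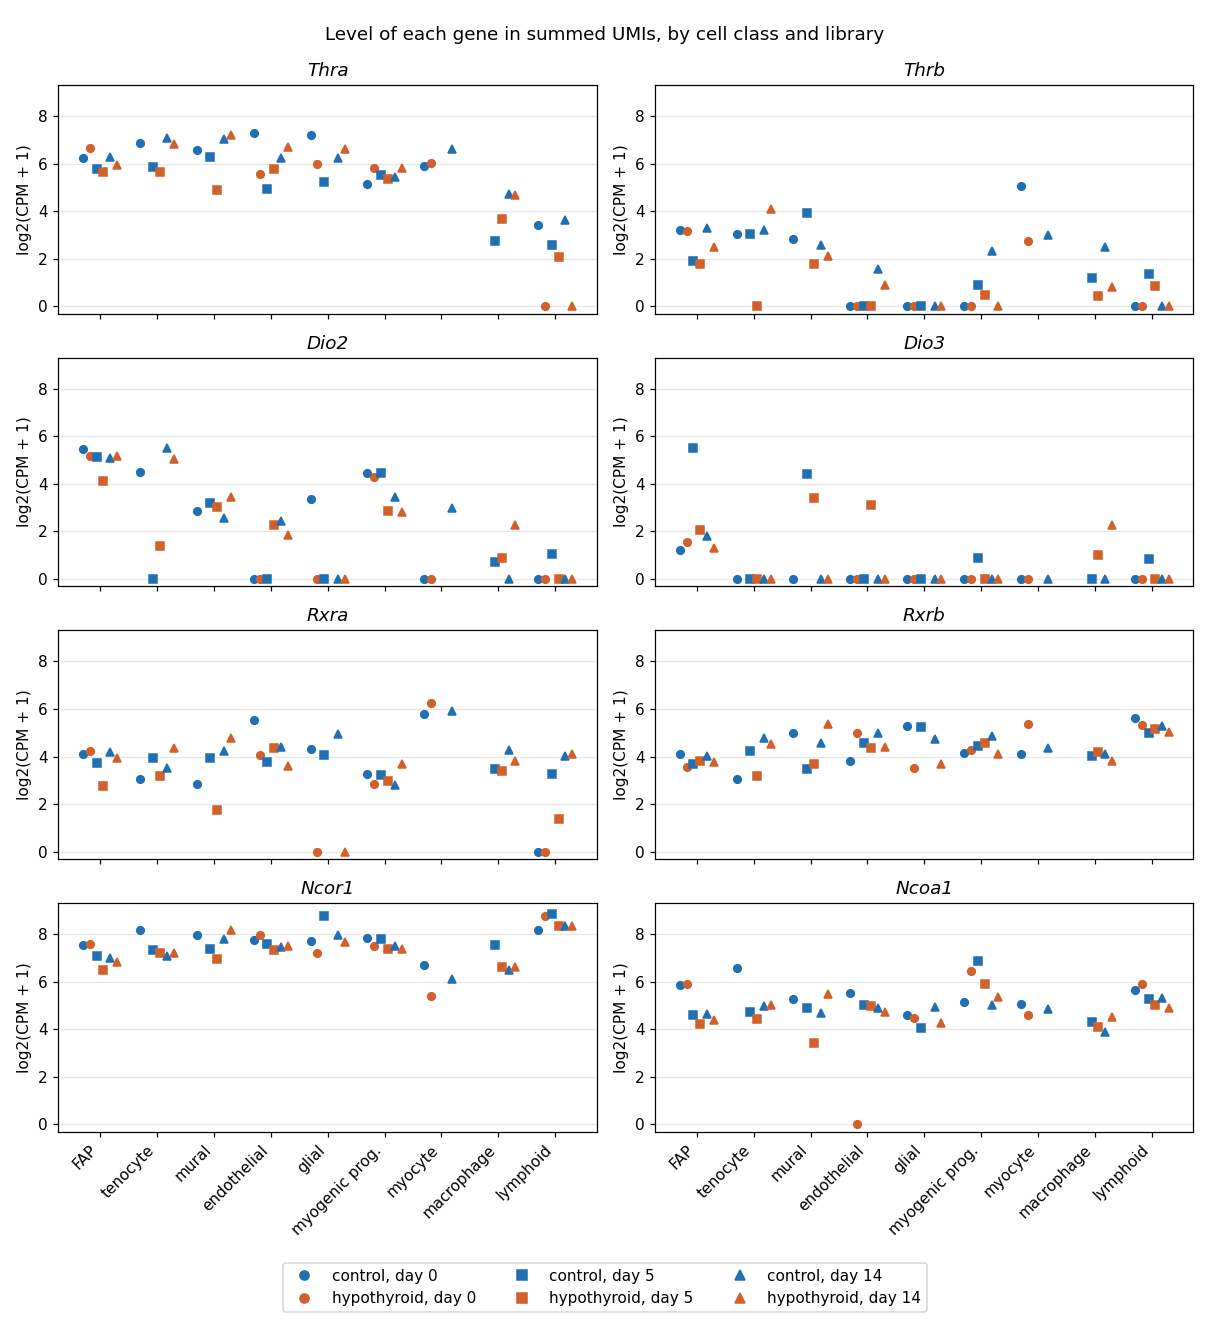
Level of each of the 8 genes by cell class, as log2(CPM + 1) of the summed UMIs of the cells of 1 class in 1 library, for pools of 20 or more cells. Colour gives the diet and the symbol the day. *Thra* drops from structural to macrophage-like and lymphoid-like cells. *Dio2* is highest in FAP-like cells and, except at 5 dpi, in tenocyte-like cells. *Ncor1* is highest in lymphoid-like cells, and *Dio3* reaches 45 CPM in the control FAP-like cells at 5 dpi.

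*Thra* in FAP-like cells was at 73.5 CPM (273 UMIs) in control and 98.7 CPM (100 UMIs) in hypothyroid muscle on day 0, 52.9 CPM (214) and 48.7 CPM (425) at 5 dpi, and 76.5 CPM (660) and 60.8 CPM (443) at 14 dpi. The level was lowest at 5 dpi under either diet. In hypothyroid muscle the ratio of 14 to 5 dpi was 1.25 (1.09 to 1.43). Without the shared cells it was 1.13 (0.917 to 1.38), an interval that included 1. The diet ratio, hypothyroid over control, was 1.34 (1.06 to 1.69) on day 0, 0.92 (0.779 to 1.09) at 5 dpi and 0.795 (0.703 to 0.898) at 14 dpi, or 0.719 (0.589 to 0.873) at 14 dpi without the shared cells. The direction on day 0 was therefore opposite to that at 14 dpi. Among FAP-like cells of 500 to 8000 UMIs only, the diet ratio at 14 dpi was 0.998, and in control muscle the level was not lowest at 5 dpi, since the ratio of 5 dpi to day 0 was 1.07 and that of 14 to 5 dpi 0.902. The early response genes *Fos* and *Jun*, known to be induced when tissue is dissociated, differed in the same direction on day 0 and at 14 dpi: the ratio for *Fos* was 2.09, 1.03 and 0.488 on the 3 days and that for *Jun* was 1.5, 0.756 and 0.474. Without the shared cells *Fos* was at 0.353 and *Jun* at 0.378 at 14 dpi. Over 46 pools of class and library, the genes whose log2(CPM + 10) was most like that of *Thra* were *Fosb* (r = 0.901), *Fos* (r = 0.9) and *Jun* (r = 0.895). These correlations describe pools that span all cell classes and share libraries and depth, so they do not show what holds within FAP-like cells. What part these genes have in the diet ratio was not tested.

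The 3′ part of *Thra* (chr11:98631464-98659832, plus strand) overlaps by 1075 bases the 3′ end of *Nr1d1* (chr11:98658758-98666159, minus strand), which encodes the circadian repressor REV-ERBα, and 20 of 22 coding *Thra* transcripts in GENCODE vM39 end inside that gene. Strand use in the counting is not given in the sources used here, so reads of the overlap cannot be assigned with certainty. In FAP-like cells *Nr1d1* was at 65.5 and 91.8 CPM on day 0 in control and hypothyroid cells, 12.9 and 20.6 CPM at 5 dpi, and 68.7 and 90.6 CPM at 14 dpi. It was higher in hypothyroid cells on every day, with ratios of 1.4, 1.6 and 1.32 and no interval that included 1, so that at 14 dpi it differed in the opposite direction to *Thra*. Over 46 pools of class and library *Thra* and *Nr1d1* had r = 0.774. These pools span all cell classes, and both genes were low in immune cells. Pooled levels of *Thra* and *Nr1d1* were 13.2 and 9.97 CPM in macrophage-like cells and 4.56 CPM each in lymphoid-like cells. This r therefore does not bear on the diet ratios within FAP-like cells. What part reads of the overlap have in r or in the diet ratios was not tested. Counts per gene also merge the T3-binding and non-binding splice forms of *Thra*.

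*Thrb*, the second receptor gene, was scarce in every class, and FAP-like cells held 182 of its 291 UMIs. It was at 8.35 CPM (31 UMIs) and 7.9 CPM (8) on day 0 in control and hypothyroid muscle, 2.72 CPM (11) and 2.41 CPM (21) at 5 dpi, and 8.92 CPM (77) and 4.67 CPM (34) at 14 dpi. It was lowest at 5 dpi under either diet and lower in hypothyroid than in control cells at 14 dpi, with a ratio of 0.523 (0.339 to 0.793), or 0.497 (0.229 to 0.965) on 10 UMIs without the shared cells. Without those cells the hypothyroid ratio of 14 to 5 dpi was 1.84 (0.775 to 4.09), an interval that included 1. Myocyte-like cells were at 11.1 CPM on 12 UMIs and tenocyte-like cells at 8.14 CPM on 25 UMIs, ranges that overlapped those of FAP-like cells, whereas glial-like cells held 0 UMIs and myogenic progenitor-like cells 4.

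*Dio2*, which encodes the activating deiodinase, had its highest pooled levels in FAP-like and tenocyte-like cells. FAP-like cells held 74.3% of its 1363 UMIs. The level was 30.3 CPM in FAP-like and 27.4 CPM in tenocyte-like cells pooled over libraries, then 10.9 CPM in myogenic progenitor-like and 7.01 CPM in mural-like cells. It was at most 5.54 CPM in the remaining named classes. Unclassed cells ran from 6.91 CPM (26 UMIs, hypothyroid 5 dpi) to 40.3 CPM (31 UMIs, control day 0). The highest mural-like library, 9.98 CPM, stayed below the lowest FAP-like one, 16.3 CPM, whereas the tenocyte-like and myogenic ranges overlapped that of FAP-like cells. Tenocyte-like cells at 5 dpi held 0 *Dio2* UMIs in control and 1 in hypothyroid muscle (0 and 1.61 CPM). Of their 84 UMIs, 61 came from control and 16 from hypothyroid cells at 14 dpi. Lymphoid-like cells held 4 *Dio2* UMIs in all.

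In FAP-like cells *Dio2* was at 43.1 CPM (160 UMIs) and 34.6 CPM (35) on day 0 in control and hypothyroid muscle, 33.6 CPM (136) and 16.3 CPM (142) at 5 dpi, and 33.1 CPM (286) and 34.7 CPM (253) at 14 dpi. The hypothyroid library at 5 dpi stood apart as the lowest, with a diet ratio of 0.484 (0.38 to 0.617), or 0.516 (0.398 to 0.671) without the shared cells, against 0.802 (0.54 to 1.16) on day 0 and 1.05 (0.881 to 1.25) at 14 dpi. Among cells of 500 to 8000 UMIs the diet ratio at 5 dpi was 0.613, and within hypothyroid muscle the level at 5 dpi was not the lowest, with a ratio of 1.12 for 5 dpi over day 0 and 0.94 for 14 over 5 dpi. At 5 dpi the share of FAP-like cells with a *Dio2* UMI was 18.5% (14.3% to 23.4%) in control and 13.6% (10.9% to 16.6%) in hypothyroid muscle, and 3.01% and 3.13% after thinning to 1000 UMIs. The thinned shares did not show the difference seen in CPM, and positive cells held 2.43 UMIs on average in control and 1.77 in hypothyroid muscle. In myogenic progenitor-like cells at 5 dpi *Dio2* was at 21.1 CPM (25 UMIs) in control and 6.17 CPM (16 UMIs) in hypothyroid muscle, a ratio of 0.293 (0.146 to 0.571), or 0.377 (0.175 to 0.818) without the shared cells.

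*Dio3*, which encodes the inactivating deiodinase, was low in FAP-like cells except in injured control muscle at 5 dpi. It was at 1.35 CPM (5 UMIs) and 1.98 CPM (2) on day 0 in control and hypothyroid muscle, 45 CPM (182) and 3.21 CPM (28) at 5 dpi, and 2.55 CPM (22) and 1.51 CPM (11) at 14 dpi. Control cells at 5 dpi stood far above the other 5 libraries. The ratio of day 5 to day 0 was 33.4 (14.0 to 104) in control and 1.62 (0.41 to 14.1) in hypothyroid cells, and the diet ratio at 5 dpi was 0.0713 (0.0461 to 0.107), a 14.0-fold lower level, or 0.0657 (0.0423 to 0.0986) without the shared cells. With all columns of each file, later blocks included, the diet ratio at 5 dpi was 0.352. Among cells of 500 to 8000 UMIs, 99 of 302 control cells kept 15 *Dio3* UMIs and 164 of 589 hypothyroid cells kept 0, so no ratio was given there.

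The *Dio3* signal came from few cells with many molecules. In control muscle at 5 dpi 29 of 302 FAP-like cells (9.6%, 6.53% to 13.5%) had a *Dio3* UMI, at a mean of 6.28 and a maximum of 35 UMIs per positive cell, against 13 of 589 (2.21%, 1.18% to 3.75%) in hypothyroid muscle, at a mean of 2.15 and a maximum of 7. In lymphoid-like cells of the same control library, the background, 3 of 1024 cells (0.293%) had one. After thinning to 1000 UMIs the FAP-like shares were 3.34% (1.61% to 6.06%) and 0.174% (0.0044% to 0.965%). One cell held 19.2% of the control UMIs, and without it the level was 36.5 CPM. A further 10 unclassed cells of the same library held 83 *Dio3* UMIs, with 46 in a single cell, against 22 UMIs in 11 unclassed hypothyroid cells. Positive cells were deep, with a median of 14485 UMIs against 11194 in negative control FAP-like cells and 21009 against 13615 in hypothyroid ones. Outside these cells *Dio3* reached 20.5 CPM (10 UMIs in 3 of 50 cells) in control and 9.66 CPM (4 UMIs in 3 of 32 cells) in hypothyroid mural-like cells at 5 dpi, endothelial-like, macrophage-like, myogenic progenitor-like and lymphoid-like cells held 1 to 11 UMIs each over all libraries, and tenocyte-like, glial-like and myocyte-like cells held 0 UMIs.

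**Figure D2:**
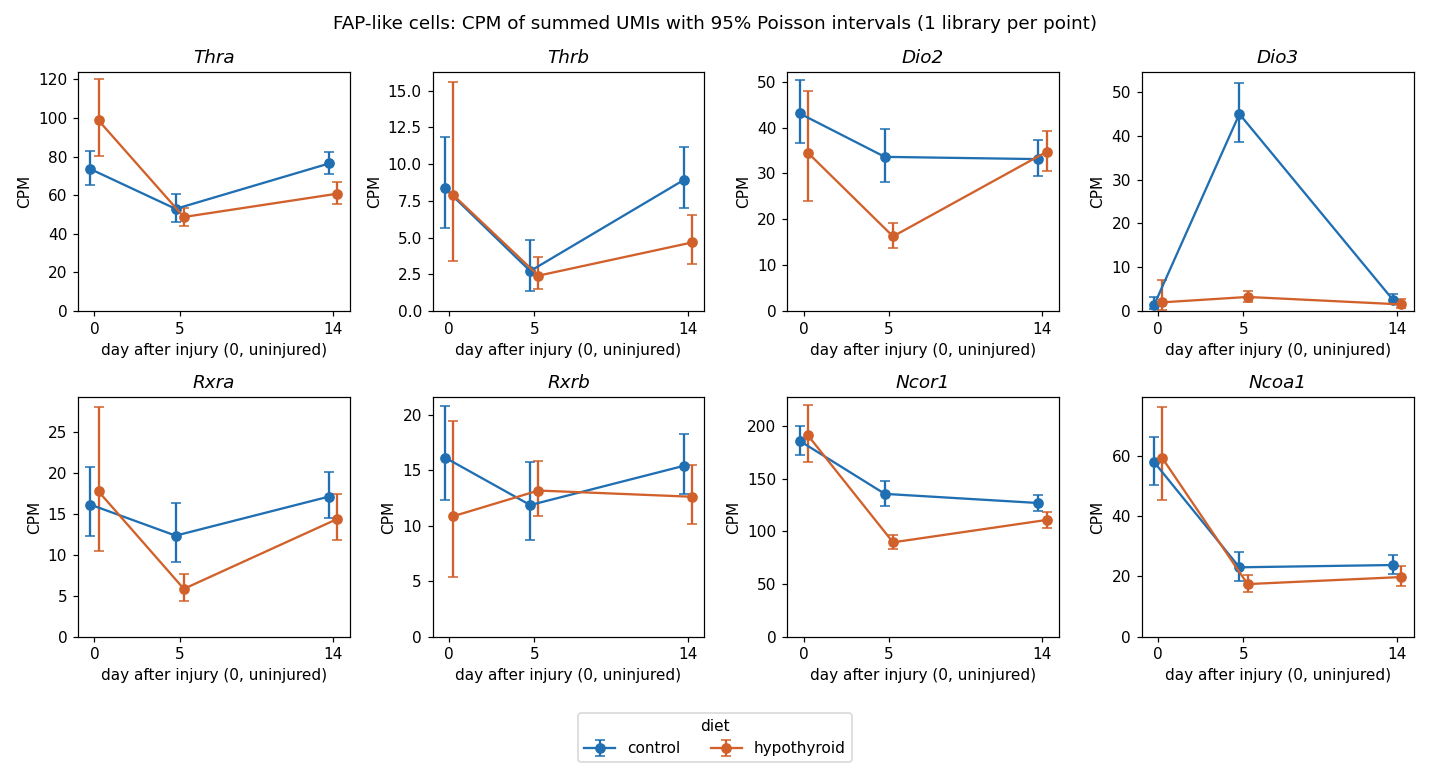
CPM of the 8 genes in FAP-like cells by day after injury for the control and hypothyroid diets, 1 library per point, with exact 95% Poisson intervals for counting error. *Dio3* in control muscle reaches 45 CPM at 5 dpi against 3.21 CPM in hypothyroid muscle, *Dio2* and *Rxra* are lowest in the hypothyroid library at 5 dpi, and *Ncoa1* is highest on day 0 under both diets.

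Within the FAP-like class both deiodinases followed *Smoc2*, a secreted calcium-binding matrix protein gene that led 1 of the clusters of these cells. It was chosen for this after values were seen, so its levels are a description without a test. FAP-like cells with a *Smoc2* UMI made up 67.3% of the class and 69.7% of its UMIs, but held 93.8% of the *Dio2* UMIs and 249 of 250 *Dio3* UMIs. They held 72.8% of the *Thra* UMIs, close to their share of all UMIs. In *Smoc2*-positive against *Smoc2*-negative cells *Dio2* was at 60.7 against 5.87 CPM on day 0, 47.0 against 5.39 CPM at 5 dpi and 50.7 against 9.72 CPM at 14 dpi in control muscle. In hypothyroid muscle it was at 47.1 against 3.44 CPM, 19.5 against 1.29 CPM and 46.8 against 4.78 CPM. *Dio2* was thus higher in *Smoc2*-positive cells in 6 of 6 libraries, by ratios of 5.22 to 15.1. The *Smoc2*-positive cells had the lower median depth in 3 libraries (5143 against 7599 UMIs in control muscle on day 0) and the higher one in the other 3.

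All 29 control and all 13 hypothyroid FAP-like cells with *Dio3* at 5 dpi had a *Smoc2* UMI, against 60.1% and 76.6% of those without *Dio3*, and 13 of the 29 control cells had a *Dio2* UMI too, against 15.7% of the others. Of the 29, 10 (34.5%) had a UMI of *Pi16*, a marker of another fibroblast state, against 55.3% of the others. *Dio3*-positive cells were deeper than the others, which raises the chance of a UMI of any gene. The diet ratio of *Dio2* at 5 dpi within *Smoc2*-positive cells alone was 0.415 (0.324 to 0.531) and that of *Dio3* 0.0588 (0.038 to 0.0879). The share of *Smoc2*-positive cells at that day was 63.9% in control and 77.1% in hypothyroid muscle.

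**Figure D3:**
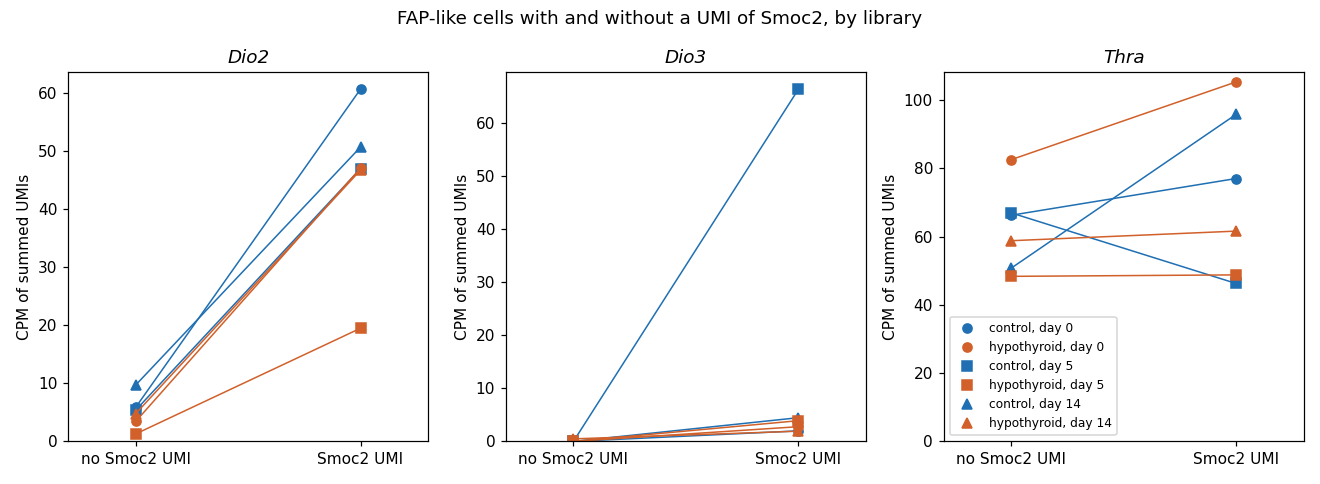
CPM of *Dio2*, *Dio3* and *Thra* in FAP-like cells without and with a UMI of *Smoc2*, with 1 line per library, colour for diet and symbol for day. *Dio2* is higher in *Smoc2*-positive cells in each of the 6 libraries, *Dio3* in control muscle at 5 dpi stands at 0 and 66.3 CPM, and *Thra* is higher in *Smoc2*-positive cells in 5 libraries and lower in 1.

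The retinoid X receptor genes *Rxra* and *Rxrb* had their highest levels in different classes. *Rxra* was highest in myocyte-like cells, with 53.8 to 75.4 CPM in the 3 libraries that had 20 or more of them, above every other pool, of which the highest was 45.6 CPM in endothelial-like cells. *Rxrg*, the third member of that family, also had its highest pooled level there, at 50.8 CPM against at most 9.27 CPM in the other classes. In single libraries it ran from 36.8 to 87 CPM in myocyte-like cells and reached 31.6 CPM in glial-like cells. *Rxrb* was highest in lymphoid-like cells, at 30.9 to 48.5 CPM, a range that lay above those of FAP-like (10.9 to 16.2 CPM), macrophage-like, tenocyte-like and myogenic progenitor-like cells and overlapped the rest.

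In FAP-like cells *Rxra* was at 16.2 CPM (60 UMIs) and 17.8 CPM (18) on day 0 in control and hypothyroid muscle, 12.4 CPM (50) and 5.84 CPM (51) at 5 dpi, and 17.1 CPM (148) and 14.4 CPM (105) at 14 dpi. The hypothyroid library at 5 dpi was again the lowest, at a diet ratio of 0.473 (0.314 to 0.713), or 0.494 (0.319 to 0.77) without the shared cells. Among cells of 500 to 8000 UMIs it was 1.07, on 9 against 5 UMIs. *Rxrb* stayed between 10.9 and 16.2 CPM in all 6 libraries, and its diet ratios of 0.672, 1.11 and 0.819 had intervals that all included 1. For lymphoid-like cells at 5 dpi *Rxra* was at 8.78 CPM on 33 UMIs (control) and 1.6 CPM on 2 UMIs (hypothyroid), a ratio of 0.182 (0.0211 to 0.711).

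*Ncor1*, the corepressor gene, had 12591 UMIs and was found in 53.2% of cells. Lymphoid-like cells were highest at 291 to 459 CPM, a range that overlapped only that of glial-like cells (147 to 438 CPM), and myocyte-like cells had the lowest pooled level, 76.6 CPM, with a range of 40.6 to 102 CPM that overlapped those of FAP-like and macrophage-like cells. FAP-like cells were at 186 CPM (691 UMIs) and 192 CPM (194) on day 0 in control and hypothyroid muscle, 136 CPM (549) and 89.6 CPM (782) at 5 dpi, and 127 CPM (1096) and 111 CPM (808) at 14 dpi. The level was higher on day 0 than after injury under both diets. The diet ratio at 5 dpi was 0.66 (0.591 to 0.738) in FAP-like, 0.516 (0.447 to 0.597) in macrophage-like, 0.762 (0.652 to 0.892) in myogenic progenitor-like and 0.702 (0.629 to 0.783) in lymphoid-like cells of that day. The median gene was also lower in hypothyroid cells of these classes, and relative to it *Ncor1* stood at 0.838, 0.591, 0.963 and 0.843, in that order. The intervals of tenocyte-like (ratio 0.916), mural-like (0.743) and endothelial-like cells (0.832) at 5 dpi included 1.

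*Ncoa1*, the coactivator gene, was highest in myogenic progenitor-like cells, at 31.9 to 117 CPM, a range that overlapped those of other classes. At 5 dpi these cells were at 117 CPM (139 UMIs) in control and 58.3 CPM (151) in hypothyroid muscle, against 34.0 CPM (8) and 86.4 CPM (14) on day 0 and 31.9 CPM (16) and 40.4 CPM (27) at 14 dpi. Control cells at 5 dpi were thus the highest pool, with a diet ratio of 0.497 (0.392 to 0.63), or 0.55 (0.423 to 0.717) without the shared cells. In FAP-like cells *Ncoa1* was at 57.9 CPM (215) and 59.2 CPM (60) on day 0, 22.99 CPM (93) and 17.4 CPM (152) at 5 dpi, and 23.7 CPM (205) and 19.8 CPM (144) at 14 dpi. It was lower at 14 dpi than on day 0 under either diet, with ratios of 0.41 (0.337 to 0.499) in control and 0.334 (0.245 to 0.459) in hypothyroid cells.

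The level in FAP-like cells was compared with that in all other classed cells of the same library, as a mean log2 ratio over the 6 libraries, to ask which of the genes mark these cells. *Dio2* was higher in FAP-like cells in 6 of 6 libraries by 2.31 ± 0.56 (SD, n = 6) and *Thrb* in 6 of 6 by 0.92 ± 0.75, a pattern that 11.6% of the 12435 genes tested shared. *Rxrb* (-0.81 ± 0.25) and *Ncor1* (-0.57 ± 0.38) were lower in 6 of 6 libraries, as were 30.4% of all genes. For each of these 4 the exact two-sided sign-flip permutation test gave p = 0.03125, the smallest that 6 libraries allow, and 0.0744 after Benjamini-Hochberg adjustment over all genes tested. No gene of the 12435 could go below that adjusted value, and 5225 had the smallest p. *Thra* (0.50 ± 0.75, exact p = 0.25), *Dio3* (2.17 ± 2.38, higher in 5 of 6, exact p = 0.09375), *Rxra* (-0.13 ± 0.24, exact p = 0.3125) and *Ncoa1* (-0.29 ± 0.50, exact p = 0.25) did not keep 1 direction. Without the shared cells *Dio2* remained higher in 6 of 6 libraries and *Thrb* did not. The other cells mix classes, and *Thrb* was not particular to FAP-like cells. Pooled over libraries it was at 5.45 CPM there, against 11.1 CPM in myocyte-like, 8.14 CPM in tenocyte-like and 6.6 CPM in mural-like cells.

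The 8 genes were then counted against the diet background. A gene was counted where the diet ratio was at least 2 or at most 0.5 and both pools together held at least 20 UMIs. In FAP-like cells 0 of 7 measurable members passed on day 0 (9.48% of all genes did), 3 of 8 at 5 dpi (14.7%) and 0 of 8 at 14 dpi (9.08%). The 3 at 5 dpi were *Dio2*, *Dio3* and *Rxra*, all lower in hypothyroid cells. On that day the median ratio over 11150 genes was 0.788, and relative to it *Dio2* stood at 0.614, *Rxra* at 0.6 and *Dio3* at 0.0905, so only *Dio3* was past 2-fold relative to the median gene. The count at 5 dpi was 1 with all columns of each file and 1 among cells of 500 to 8000 UMIs, and 2 without the shared cells, where *Dio2* did not pass. At 14 dpi it was 2 without the shared cells, *Thrb* and *Dio3*, both lower, and 2 when the smallest value of a cell was taken as 1 UMI.

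**Figure D4:**
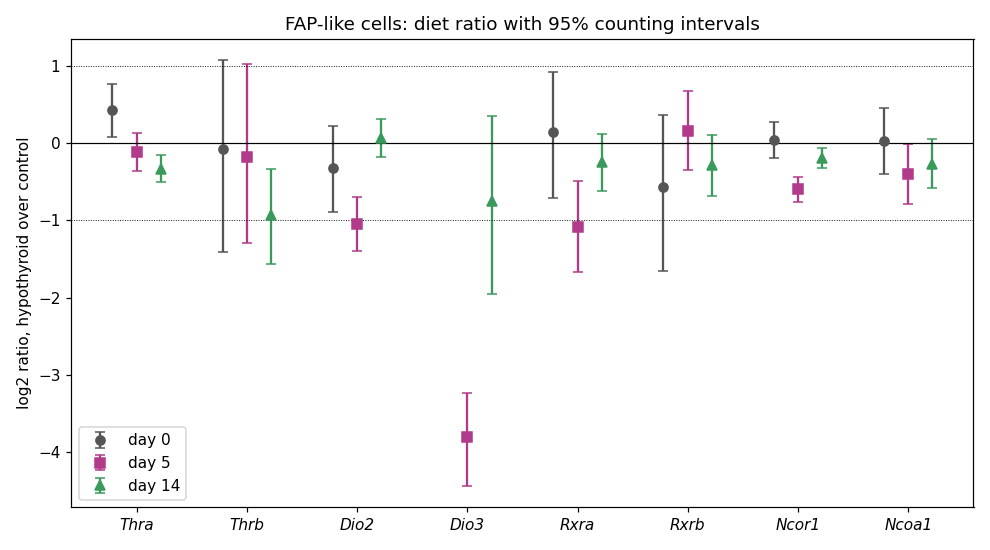
Diet ratio (hypothyroid over control, log2) of the 8 genes in FAP-like cells on days 0, 5 and 14, for genes with at least 20 UMIs in both pools together, with exact 95% counting intervals. Dotted lines mark 2-fold. *Dio3* at 5 dpi lies at a ratio of 0.0713, *Dio2* and *Rxra* at 0.484 and 0.473, and the other points lie within 2-fold.

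Members past 2-fold in the other classes were counted in the same way. At 5 dpi 2 of 6 passed in myogenic progenitor-like cells (*Dio2* and *Ncoa1*, both lower; background 15.5%), 1 of 5 in macrophage-like cells (*Thra*, higher on 69 against 9 UMIs; background 25.6%) and 1 of 5 in lymphoid-like cells (*Rxra*, lower; background 13.9%). Relative to the median gene *Ncoa1* in myogenic progenitor-like cells stood at 0.628, and the count of 2 there became 0 with all columns and among cells of 500 to 8000 UMIs, and 1 without the shared cells. At 14 dpi 0 of 6 passed in tenocyte-like (background 14.2%), 0 of 5 in mural-like (16.6%), 0 of 5 in endothelial-like (9.04%) and 0 of 5 in macrophage-like cells (15.5%). *Thra* in macrophage-like cells had a ratio of 2.06 (1.02 to 4.69), and of 1.64 (0.814 to 3.73) without the shared cells, which includes 1, and it turned to 0.875 with graph-based clusters and 0.539 among cells of 500 to 8000 UMIs. In the other 11 comparisons fewer than 5 members had 20 UMIs, and 5 of these held 1 member past 2-fold. *Thra* was lower at 5 dpi in mural-like cells (ratio 0.383, 0.182 to 0.75; background 25.2%). On day 0 it was lower in endothelial-like cells (0.299, 0.0576 to 0.983; background 28.2%) and in glial-like cells (0.434, 0.148 to 1.05; background 16.7%). Also on day 0 *Ncoa1* was higher in myogenic progenitor-like cells (2.54, 0.995 to 6.99; background 14.2%) and *Ncor1* lower in myocyte-like cells (0.397, 0.141 to 0.987; background 17.3%). Of these 5 intervals 2 included 1.

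Between days these genes differed in FAP-like cells against a broad background. From day 0 to 5 dpi 3 of 8 members passed 2-fold in control muscle, where 30.1% of all genes did (*Dio3* higher, *Thrb* and *Ncoa1* lower), and 6 of 8 in hypothyroid muscle, where 38.8% did (*Thra*, *Thrb*, *Dio2*, *Rxra*, *Ncor1* and *Ncoa1*, all lower). The median gene was at 0.812 in that hypothyroid comparison, and relative to it only *Thrb* (0.375), *Rxra* (0.405) and *Ncoa1* (0.362) stayed past 2-fold on the lower side. From 5 to 14 dpi 2 of 8 passed in control (background 24.1%), *Thrb* higher and *Dio3* lower, and 3 of 8 in hypothyroid muscle (26.3%), *Dio2* and *Rxra* higher and *Dio3* lower. The ratio of *Dio2* was 2.13 (1.73 to 2.64) and that of *Rxra* 2.46 (1.75 to 3.52) over this interval in hypothyroid cells, against 0.985 (0.801 to 1.22) and 1.39 (1.0 to 1.95) in control cells. Without the shared cells *Dio2* was at 2.26 (1.71 to 2.99), *Rxra* at 1.97 (1.18 to 3.23), no longer past 2-fold, and *Dio3* at 0.277 on 2 against 28 UMIs (0.0319 to 1.1). With all columns of each file 1 member passed in each of these 4 comparisons, and among cells of 500 to 8000 UMIs the 6 in hypothyroid muscle from day 0 to 5 dpi became 1, the 3 in control muscle 0, and the 3 in hypothyroid muscle from 5 to 14 dpi 0. Whether these diet courses differ beyond the spread between mice was not tested.

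Of 24 other listed genes of the pathway 21 were in the files. The transporters *Slc7a8* (190 CPM) and *Slc16a10* (45.1 CPM) were highest in macrophage-like cells. In the diet comparison of FAP-like cells 0 of 19 measurable pathway genes passed 2-fold on day 0, where 9.48% of all genes did. Of 20 measurable at 5 dpi 1 passed (14.7% of all genes), and of 21 at 14 dpi 1 passed (9.08%). At 5 dpi it was *Hdac3*, the deacetylase of the NCOR complex, with 39.6 CPM on the control and 17.9 CPM on the hypothyroid diet (ratio 0.452, 0.36 to 0.567), and at 14 dpi *Rxrg*, on 7 against 19 UMIs. The *Hdac3* ratio is not taken relative to the median gene, which was itself lower in hypothyroid cells there, at 0.788. In macrophage-like cells at 5 dpi 5 of 20 were lower, among them *Ep300* and *Kat2b*, and 1 was higher, where 25.6% of all genes passed. In myogenic progenitor-like cells 2 of 19 were lower and 0 higher, where 15.5% did. From day 0 to 5 dpi in hypothyroid FAP-like cells 8 of 20 pathway genes were past 2-fold lower, among them the coactivators *Ep300* (ratio 0.336, 0.263 to 0.433) and *Ncoa2* (0.292, 0.211 to 0.411), and 1 was higher, where 38.8% of all genes passed. In control cells 2 of 20 were lower and 3 higher, where 30.1% passed.

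By likeness over the same 46 pools, *Dio2* was nearest to *Egfr* (r = 0.82), *Cpq* (0.795) and *Adamtsl4* (0.793), *Dio3* to *Cyp1b1* (0.716), *Tubb3* (0.715) and *Aldh1a2* (0.711), and *Thrb* to *Tmem100* (0.761), *Tbx15* (0.743) and *Bphl* (0.713). *Rxra* was nearest to *Nipsnap2* (0.765), *Phkg1* (0.746) and *Gm15417* (0.739), *Rxrb* to *Trappc12* (0.687), *Suds3* (0.672) and *Hinfp* (0.668), *Ncor1* to *Luc7l2* (0.895), *Kmt2a* (0.86) and *Bod1l* (0.843), and *Ncoa1* to *Taf5* (0.666), *Tbce* (0.633) and *Cdk8* (0.63). These values describe pools that span all cell classes and share libraries, and they are given without a test. With a pseudocount of 1 CPM, 0 of the 3 genes named for *Dio2* and 1 of 3 for *Rxra*, *Rxrb* and *Ncoa1* were the same.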

How the data were processed

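The deposited files hold 1 matrix per sample of log2(CPM + 1) values per gene and cell. According to the study's methods the authors captured cells with 10x 3′ v3 chemistry, used Partek Flow with its Cell Ranger alignment to mm39, and took genes from GENCODE M30. The authors' stated filter, which removes cells above 8000 UMIs, is not met by the deposited cells, some of which exceed it. Since a cell's lowest steps show the value of 1 UMI, whole UMIs were recovered for 99.934% of 39334018 values above 0 (within 0.05). Each file holds several alphabetical blocks of barcodes, 20269 columns in all; only the first was taken as the labelled sample, so 9062 later columns are not used except as an alternative.

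Cells were named by mean z-scores of marker lists (at least 0.3, lead at least 0.2; myocytes also at least 8% of UMIs from their markers), a scoring rule chosen after the files were seen; doublets were not called. UMIs were summed per class and library in pools of at least 20 cells, giving CPM with exact Poisson intervals, and ratios with exact binomial 95% intervals for counting error only. Shares have Clopper-Pearson intervals. The sign-flip test, with 0.5 UMI added per pool, was adjusted over all 12435 genes with at least 20 UMIs rather than over the 8 members, since members and lists were chosen with earlier results of these data known. The named genes were every member, listed pathway genes by counts with values for those past 2-fold, and the 3 genes of at least 500 UMIs most like each member. The lists also held Slco1c1, Dio1, Crym and Dio3os, which are not analysed here. Some listed pathway genes enter the counts and are not reported here by name. Scripts were tested on simulated data and run with scipy 1.17.1 (tests, intervals) and scanpy 1.11.5 (clusters) under Python 3.11.15.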

Additional observations from a re-analysis of the deposited data

Results flagged for a closer look

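The diet ratio of *Thra*, hypothyroid over control, lay on opposite sides of 1, counting intervals included, between days or classes. In FAP-like cells it was 1.34 on day 0 and 0.795 at 14 dpi. In endothelial-like cells it was 0.299 on day 0, on 3 UMIs in hypothyroid muscle, and 1.38 at 14 dpi. At 5 dpi it was 0.383 in mural-like cells, on 12 against 37 UMIs, and 2.06 in macrophage-like cells, on 69 against 9 UMIs. Each side is 1 library, and the difference between days or classes was not tested.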

How the results depend on the processing

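Conditions were compared as ratios of 1 library to 1 library. No paired analysis by replicate was possible because each condition was 1 library of 3 pooled mice. The diets paired by day over 3 days in FAP-like cells gave exact sign-flip p of 0.25 to 1.0 for the 8 members, and 3 pairs cannot give less than 0.25. Of 541 recomputed member ratios, 470 stayed within the counting interval of the reported one, 60 moved outside it and 11 turned direction.

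With only cells of 500 to 8000 UMIs, which keeps 99 of 302 control and 164 of 589 hypothyroid FAP-like cells of 5 dpi, the diet ratio of *Rxra* in FAP-like cells at 5 dpi became 1.07 and that of *Thra* in macrophage-like cells 0.539. The day 5 over day 0 ratio of *Thra* in control FAP-like cells became 1.07, that of *Dio2* 1.32 in control and 1.12 in hypothyroid cells, and the day 14 over day 5 ratio was 0.902 for *Thra* in control, and 0.94 for *Dio2* and 0.812 for *Ncor1* in hypothyroid cells. *Dio3* could not be compared at 5 dpi there, since the hypothyroid cells held 0 UMIs, and *Thra* at 14 dpi was at 0.998. With all columns the diet ratio of *Ncoa1* at 5 dpi in FAP-like cells was 1.0 and that of *Dio3* 0.352, with graph-based clusters that of *Thra* in macrophage-like cells at 5 dpi 0.875, and with each cell weighted equally the day 5 over day 0 ratio of *Dio2* in control cells 1.05. The cause was not tested.

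Among the counts of members past 2-fold, all columns gave 1 for the diet in FAP-like cells on day 0 and at 5 dpi and in mural-like cells at 14 dpi, 0 at 5 dpi in myogenic progenitor-like cells and in both immune classes, and 1 for each of the 4 injury comparisons. Cells of 500 to 8000 UMIs gave 1 in FAP-like cells on day 0 and at 5 dpi, 0 in myogenic progenitor-like cells at 5 dpi, and 0 in control and 1 in hypothyroid cells from day 0 to 5, and 0 in hypothyroid cells from day 5 to 14. Equal weights gave 1 in FAP-like, endothelial-like and macrophage-like cells at 14 dpi and myogenic progenitor-like cells at 5 dpi, 2 in lymphoid-like cells at 5 dpi and 1 in hypothyroid FAP-like cells from day 5 to 14. Taking the smallest value as 1 UMI gave 2 in FAP-like and tenocyte-like cells at 14 dpi and 1 in myogenic progenitor-like cells at 5 dpi. A minimum of 50 UMIs gave 1 in myogenic progenitor-like and 0 in lymphoid-like cells at 5 dpi, and clusters gave 0 in macrophage-like cells at 5 dpi. Without the cells that stand in 2 files, an alternative chosen after seeing the data, the count was 2 in FAP-like (*Thrb* and *Dio3*), 1 in tenocyte-like and 1 in macrophage-like cells at 14 dpi, 1 in myogenic progenitor-like and 0 in macrophage-like cells at 5 dpi, and 1 gene was higher in FAP-like cells in every library.

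Leaving out 1 library at a time, the mean log2 ratio of FAP-like to other cells ran from 0.319 to 0.641 for *Thra*, 0.641 to 1.042 for *Thrb*, 2.17 to 2.497 for *Dio2*, 1.575 to 2.79 for *Dio3*, -0.206 to -0.07 for *Rxra*, -0.86 to -0.733 for *Rxrb*, -0.654 to -0.436 for *Ncor1* and -0.414 to -0.175 for *Ncoa1*. It became 0.037 for *Rxra* with all columns, and 0.171 for *Rxra* and 0.253 for *Ncoa1* with cells of 500 to 8000 UMIs.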

Other observations

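*Dio3* lies at the end of an imprinted domain of chromosome 12 whose other genes include *Dlk1*, which encodes a transmembrane protein of the Notch ligand family, and the maternally expressed non-coding RNAs *Meg3* and *Rian*. These were looked at after the *Dio3* values were seen. In FAP-like cells *Dlk1* was at 16.7 and 10.9 CPM on day 0 in control and hypothyroid muscle, 60.8 and 140 CPM at 5 dpi, and 80.9 and 823 CPM at 14 dpi. The hypothyroid library at 14 dpi stood far above the others, with a ratio of 10.2 (9.41 to 11.02), or 10.7 (9.78 to 11.6) without the cells that stand in 2 files, and 43.5% of its FAP-like cells had a *Dlk1* UMI. *Dlk1* and *Dio3* therefore differed between diets in opposite directions at 5 dpi, at ratios of 2.3 and 0.0713. *Meg3* was at 683 and 728 CPM on day 0, 985 and 898 CPM at 5 dpi, and 1346 and 2392 CPM at 14 dpi, with a ratio of 1.78 (1.74 to 1.82) at 14 dpi. *Rian* was at 141 and 96.8 CPM, 228 and 265 CPM, and 240 and 253 CPM on the same days. Among control FAP-like cells at 5 dpi *Dlk1* was lower in the 29 cells with *Dio3*, at 3.81 against 69.3 CPM, with 2 against 244 UMIs. The shares of cells with a *Dlk1* UMI were closer, at 6.9% of the 29 cells and 13.2% of those without *Dio3*. Each condition is 1 library, and no test was made.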
